A study of Mus musculus with 6 samples.

Results

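The genes described here are the machinery with which a cell shows peptides on MHC class I, together with the inducible proteasome subunits that cut those peptides. They were taken by symbol from the deposited expression table and number 10 of its 41819 genes. They are the class I heavy chains H2-K1 and H2-D1, the light chain B2m, the peptide transporter subunits Tap1 and Tap2, the loading chaperone Tapbp, the immunoproteasome subunits Psmb8, Psmb9 and Psmb10, and Nlrc5, a transcriptional activator of class I genes.

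RNA sequencing was done on 3 control and 3 hPARG-expressing dishes of mouse 3T3 cells, an immortalised fibroblast line from Swiss albino embryos. All 6 dishes came from 1 clone that carried a lentiviral cassette. In it a doxycycline-inducible promoter drives human PARG (hPARG), the enzyme that degrades poly(ADP-ribose), together with the fluorescent protein mClover3. Effects of these co-induced proteins cannot be told apart. The cassette also holds a puromycin resistance gene for selection, and all 6 dishes were grown with puromycin. hPARG-expressing cells received 500 ng/ml doxycycline for 72 h and control cells none, so the control carried the same cassette without induction. No sequenced dish lacked the cassette and received doxycycline, so drug and hPARG cannot be told apart in these libraries (the study treated such cells for qPCR of chosen genes, not analysed here), and with 1 clone the results hold for that clone. By the paper's methods, cells of the clone were divided over 6 dishes before treatment. Nothing in the sources states separate passages or days, so p-values measure only the spread between these sister dishes.

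Class I molecules carry peptides from proteins made inside the cell to its surface, where CD8 T cells and NK cells read them. Proteasomes cut the proteins, TAP pumps the peptides into the endoplasmic reticulum, and tapasin (Tapbp) holds empty class I molecules there until a peptide fits. Interferon induces nearly every step, and several of its target genes encode catalytic subunits that take the place of constitutive ones in the immunoproteasome. Fibroblasts keep a basal level of the pathway without interferon.

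In GRCm38, 7 of the 10 genes lay on chromosome 17 between bases 33915899 and 35267499, a stretch of 1351601 bases that holds the mouse MHC. Psmb9, Tap1, Psmb8 and Tap2 followed each other within 34335 bases, and Psmb9 and Tap1 were annotated head to head with 212 bases in common. B2m lay on chromosome 2, and Psmb10 and Nlrc5 on chromosome 8. The RefSeq promoter table (GRCm38.p6, 250 bases before to 50 after each start) held 8 of the 10 genes, all but Tap2 and Nlrc5. The stretches below are shown because the classical class I genes share a known set of promoter elements, and capitals mark matches to the letters searched on both strands: GGGNNTTNC for kappa B, TTTCNNTT for the interferon response element, TGACG for the X2 element and CCAAT for the Y box.
H2-K1, chr17:34000351-34000466, minus strand: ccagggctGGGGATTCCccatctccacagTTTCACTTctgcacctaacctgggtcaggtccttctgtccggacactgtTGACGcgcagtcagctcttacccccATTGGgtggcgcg
H2-D1, chr17:35262915-35263053, plus strand: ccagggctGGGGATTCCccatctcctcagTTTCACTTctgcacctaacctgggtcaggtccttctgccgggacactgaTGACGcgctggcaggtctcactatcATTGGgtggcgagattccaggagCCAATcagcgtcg
B2m, chr2:122147542-122147646, plus strand: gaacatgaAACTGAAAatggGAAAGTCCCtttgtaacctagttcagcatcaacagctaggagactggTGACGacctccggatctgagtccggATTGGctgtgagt
Tap1, chr17:34187326-34187482, plus strand: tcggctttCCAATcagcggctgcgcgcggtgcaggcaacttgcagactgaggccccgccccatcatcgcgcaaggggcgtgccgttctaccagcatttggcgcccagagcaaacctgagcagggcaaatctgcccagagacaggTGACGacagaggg

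H2-K1, H2-D1 and B2m each held all 4 motifs in the 250 bases before the start, which 50 of 27025 promoters (0.185%) did. Alone, kappa B matched in 13% of promoters, the interferon response element in 21.6%, TGACG in 17.9% and CCAAT in 34.5%. The H2-K1 and H2-D1 stretches carried them in the same order, whereas in B2m the interferon response element came before kappa B and both were matched on the opposite strand. The Tap1 and Psmb9 windows overlapped by 275 bases and each held TGACG and CCAAT. Tapbp held CCAAT, and Psmb8 and Psmb10 held none of the 4. The search used 1 start per gene, where H2-K1 had 2. The windows of H2-D1, Tapbp and Psmb8 lay inside the annotated genes, and other starts were not searched. A match describes letters and is not evidence of binding.

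Depth was 21619908 to 25263818 counts per dish, at which 3 counts correspond to 0.119 to 0.139 CPM (counts-per-million), and 11509 genes passed the filter on low counts, all 10 members among them. The dishes numbered 2 in both groups stood apart from the other four. They scored 21.6 and 24.7 on a first principal component that held 42% of the variance, against -27.4 to -3.17 elsewhere, and their deviations followed exon length across genes (Spearman rho = 0.530 and 0.521, not independent replicates). Results are therefore also given without them. Of 11 fibroblast markers, Vim and Col1a2 had the highest mean CPM, while Dcn had 2 to 15 counts, Lum at most 4 and Fap at most 1. None of the 8 that were tested passed the FDR (edgeR, lowest 0.946). At an unadjusted p under 0.05 the collagens Col1a1 (log2 fold change 0.58) and Col3a1 (0.39) and the surface marker Thy1 (0.30) were higher in hPARG-expressing cells. The receptor Pdgfra (-0.40) was lower, each of these genes was without overlap, and the list median was 0.23. Of all tested genes, 1.42% were higher and 2.54% lower at that p. Without overlap, 3.61% were higher and 6.00% lower. The summed level of the fibroblast list was 6459 to 7531 CPM in control and 7104 to 8269 CPM in hPARG-expressing dishes. Of the 7 leukocyte markers Adgre1 was at 0 in every dish, and Ptprc, Csf1r and Itgam had at most 5, 8 and 8 counts. Cd14 (5.77 to 9.95 CPM), Lyz2 (4.20 to 7.65 CPM) and Cd68 (0.504 to 1.08 CPM) passed the filter, each overlapping between groups. The summed level of the 7 markers was 14.5 to 19.1 CPM in control and 11.3 to 17.8 CPM in hPARG-expressing dishes. The class II genes H2-Aa, H2-Ab1 and H2-Eb1 had at most 3 counts and Cd74, their chaperone, 5 to 20. The epithelial (0.594 to 1.02 against 0.587 to 0.934 CPM) and endothelial (0.833 to 1.35 against 0.711 to 0.768 CPM) sums stayed near 1 CPM. The part of these differences in the results was not tested.

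The 10 genes spanned a wide range of level, compared here per length as deposited RPKM (reads scaled to library depth and to kilobases of gene). B2m was highest at 554 ± 27.7 RPKM (SD, n = 6 dishes), 447 times Nlrc5 at 1.24 ± 0.236 RPKM. The heavy chains followed with 161 ± 12.6 RPKM for H2-K1 and 153 ± 11.4 RPKM for H2-D1, whose ranges over dishes overlapped. Next came Tapbp at 60.4 ± 8.24, Psmb10 at 44.0 ± 9.04 and Psmb8 at 44.0 ± 6.28 RPKM, each overlapping its neighbour. Tap2 at 12.5 ± 1.66 and Tap1 at 9.22 ± 1.52 RPKM overlapped each other and lay below Psmb8 in every dish. Psmb9 stood lower than the other immunoproteasome subunits at 3.72 ± 0.863 RPKM. Among all tested genes B2m ranked at percentile 98.9 and Nlrc5 at percentile 15.5.

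**Figure D1:**
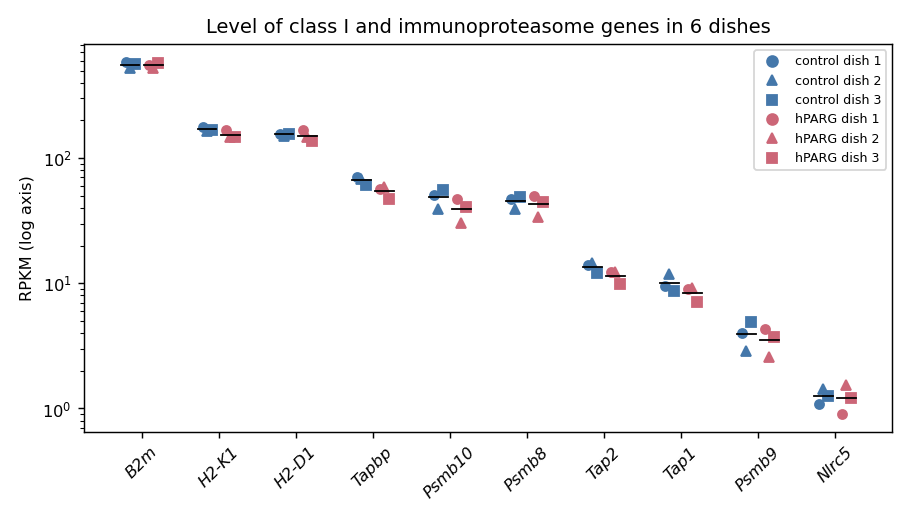
Level of each gene in RPKM (log axis) in 3 control and 3 hPARG dishes, each point 1 dish and each bar a group mean. Levels run from 520 to 589 RPKM for B2m to 0.899 to 1.55 RPKM for Nlrc5, a span far wider than the distance between group means of any gene.

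None of the 10 genes passed an FDR of 0.05 between hPARG-expressing and control cells (edgeR quasi-likelihood test without a replicate block, Benjamini-Hochberg over 11509 genes, FDR 0.999 for each, and DESeq2 also called 0), where 10 of all tested genes (0.0869%) did, each over 2-fold. At an unadjusted p under 0.05 the count was 1 member lower, beside 2.54% of tested genes lower, and 0 higher, beside 1.42%. The members' median log2 fold change was -0.12, with 9 of 10 below 0, beside a median of 0.0038 and 49.1% below 0 over all tested genes. Every 95% interval lay within 2-fold, from 0.593 (Psmb10) to 1.40 (Psmb9) of the control level. Without both dishes numbered 2 the values were -0.11 for H2-K1, -0.02 for H2-D1, 0.01 for B2m, -0.15 for Tap1, -0.19 for Tap2 and -0.11 for Psmb9, those of the other members standing with each gene, and again 0 passed the FDR. A fit that pairs dishes by number (replicate block, given below) called 1 member (Tapbp, edgeR FDR 0.0257) and 330 genes in all. In bulk RNA, fewer cells that express a gene and less of its RNA per cell cannot be told apart. The unadjusted calls over all genes were 64.2% lower in hPARG-expressing cells, and 74.5% lower when scaled by library size only.

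**Figure D2:**
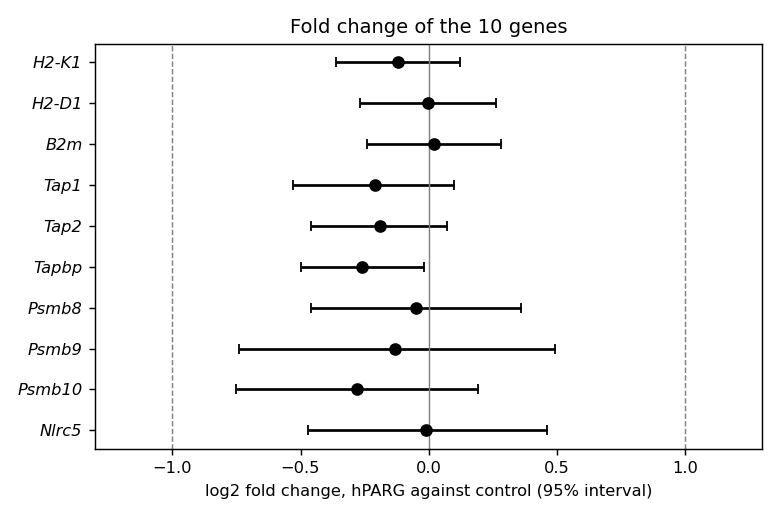
Log2 fold change of hPARG against control for each gene with its 95% interval (edgeR, 3 dishes a group), dashed lines at 2-fold. Every interval lies inside the dashed lines, and that of Tapbp (-0.50 to -0.02) is the one that does not include 0.

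The heavy chain H2-K1, which binds the peptide, measured 327, 297 and 326 CPM in control dishes 1 to 3 and 318, 271 and 287 CPM in hPARG-expressing dishes 1 to 3. The groups overlapped, since hPARG dish 1 lay above control dish 2, and the log2 fold change was -0.12 (SE 0.104, 95% interval -0.36 to 0.12). H2-D1, the other classical heavy chain, gave 380, 351 and 397 CPM in control and 420, 358 and 347 CPM in hPARG-expressing dishes, which hold both its highest and its lowest value. Its log2 fold change was -0.0039 (SE 0.113, 95% interval -0.27 to 0.26), with the sign turning to 0.0011 under DESeq2 and under RLE size factors. A level change of H2-D1 beyond 0.831 to 1.20 of control lay outside its interval.

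Heavy chain genes are close copies, so reads could be split between them. No 100-base stretch of the H2-K1 transcript was shared with another gene, and 4.64% of those of H2-D1 were, mostly with H2-Q1 and Gm7030. That search counts exact matches between reference transcripts, while the mapping allowed mismatches and multi-hit reads. It therefore cannot show that no reads were split. Counts summed over 17 heavy chain genes, 90.1% of them from H2-K1 and H2-D1, gave a log2 fold change of -0.06 (SE 0.116, 95% interval -0.33 to 0.21, edgeR FDR 0.999). Of the 17 other heavy chains listed, 15 were in the table and 7 passed the filter, none past the FDR or an unadjusted p of 0.05, with a median of -0.00. H2-T10 had the highest mean CPM of them (34.8, 26.3 and 34.9 against 33.6, 25.5 and 28.6 CPM), then H2-Q4 (17.2, 16.0 and 16.4 against 16.5, 12.7 and 13.9 CPM). H2-T3 had the largest value, 0.51 (SE 0.562), at under 1.1 CPM in each dish. The reference is not a Swiss strain, and the effect of allele differences on mapping of these polymorphic genes was not tested.

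The light chain B2m, without which heavy chains do not reach the surface, gave 543, 467 and 540 CPM in control and 524, 484 and 561 CPM in hPARG-expressing dishes. The lowest dish of each group was its number 2, and the groups overlapped throughout. Its log2 fold change was 0.02 (SE 0.112, 95% interval -0.24 to 0.28), and -0.01 when scaled by library size only.

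The peptide transporter and its chaperone held the lowest p-values. Tap1 measured 30.3, 36.3 and 28.7 CPM in control and 29.3, 29.1 and 23.7 CPM in hPARG-expressing dishes, with a log2 fold change of -0.21 (SE 0.136, 95% interval -0.53 to 0.10). Tap2, which pairs with Tap1 in the pump, measured 53.1, 53.5 and 47.4 CPM against 48.3, 46.9 and 39.3 CPM, with -0.19 (SE 0.116, 95% interval -0.46 to 0.07). For both genes hPARG dish 3 was lowest, and the groups overlapped through control dish 3.

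Tapbp was the member whose groups did not overlap. It measured 233, 219 and 213 CPM in control and 194, 196 and 166 CPM in hPARG-expressing dishes, a log2 fold change of -0.26 (SE 0.105, 95% interval -0.50 to -0.02). Its unadjusted p was 0.0391 and its FDR 0.999 (edgeR without a replicate block), so it was not called in that fit. No overlap with lower values in hPARG-expressing cells was seen in 1 of 10 members beside 6.00% of tested genes, and with higher values in 0 beside 3.61%. Of all genes without overlap, 62.4% were lower, and 75.3% when scaled by library size only. Without both dishes numbered 2, Tapbp gave -0.31 (unadjusted p = 0.00959, edgeR FDR 0.452), and 3 of 10 members lay lower without overlap, H2-K1 and Psmb10 being the others, beside 18.0% of tested genes in those 2 against 2 dishes. Leaving out 1 dish at a time moved the unadjusted p of Tapbp (edgeR) from 0.0362 without hPARG dish 2 to 0.138 without control dish 1 and 0.143 without hPARG dish 3, and it was above 0.05 in each case but the first.

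Exons of Tapbp overlap other genes over 24.9% of their bases on the opposite strand (Zbtb22) and 4.11% on the same strand (Gm19412), and the sources do not state whether counting used strand. Gm19412 had 0 counts. Zbtb22, a zinc finger gene, gave 25.2, 28.6 and 25.2 CPM in control and 25.6, 25.9 and 25.0 CPM in hPARG-expressing dishes, far below Tapbp, with a log2 fold change of -0.05 (SE 0.101, edgeR FDR 0.999). Tap2 shared 18.5% and Psmb8 14.7% of exon bases with opposite-strand genes that had 0 counts. Tap1 and Psmb9 shared 3.87% and 5.79% with each other.

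The other 12 genes of peptide loading and trimming had a median log2 fold change of -0.02, and 0 passed the FDR or an unadjusted p of 0.05. The chaperones Hspa5 (949, 1003 and 1114 against 1027, 843 and 945 CPM) and Canx (847, 924 and 800 against 820, 947 and 795 CPM) had the highest mean CPM. Per length, Calr (340 RPKM) and Pdia3 (262 RPKM) lay above Hspa5 (239 RPKM) and Canx (184 RPKM). Tapbpl, a peptide editor related to tapasin, had the largest value at -0.30 (SE 0.160), with 10.7, 8.43 and 11.5 CPM in control and 9.35, 7.29 and 8.21 CPM in hPARG-expressing dishes, which overlapped.

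**Figure D3:**
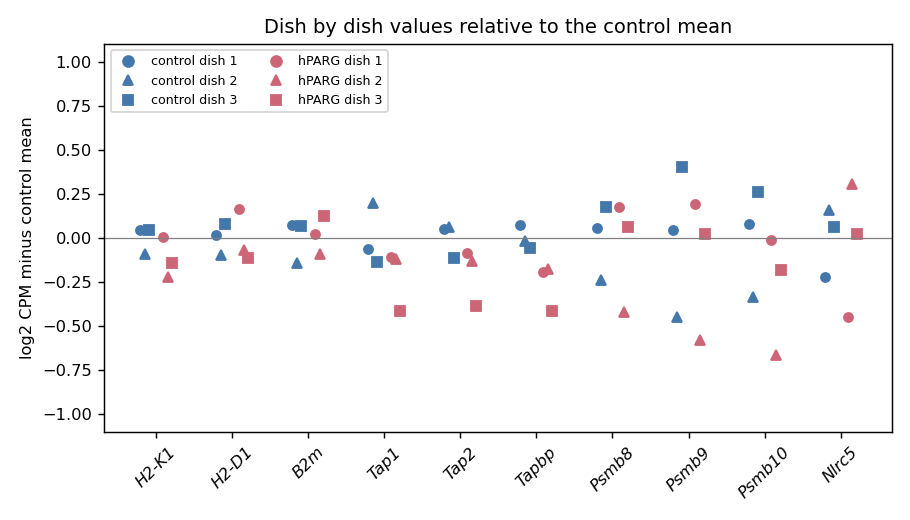
Log2 CPM of each dish minus the control mean of that gene, one point per dish (circles, triangles and squares for dishes 1, 2 and 3). Tapbp separates the groups, whereas for Psmb8, Psmb9 and Psmb10 the triangles of both groups are the lowest points.

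The immunoproteasome subunits, with Nlrc5, had the widest intervals of the 10. Psmb8 gave 84.3, 68.7 and 91.6 CPM in control and 91.3, 60.4 and 84.5 CPM in hPARG-expressing dishes. Its log2 fold change was -0.05 (SE 0.177, 95% interval -0.46 to 0.36), and 0.0044 without both dishes 2. Psmb9 gave 7.69, 5.46 and 9.85 CPM against 8.53, 4.99 and 7.57 CPM, and its log2 fold change was -0.13 with the largest error of the 10 (SE 0.264, 95% interval -0.74 to 0.49).
Psmb10, which carries the trypsin-like activity, gave 71.8, 53.9 and 81.5 CPM in control and 67.61, 43.03 and 59.96 CPM in hPARG-expressing dishes. Its log2 fold change was -0.28 (SE 0.204, 95% interval -0.75 to 0.19), the largest of the 10, and -0.26 without both dishes 2 (unadjusted p = 0.0260, edgeR FDR 0.623). In each of these genes dish 2 was the lowest of its group.

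Dish 2 lay below its group mean by the same order in both groups for these subunits. For Psmb9 the deviations were -0.44 and -0.45 on the log2 scale in control and hPARG-expressing cells, for Psmb10 -0.34 and -0.38, and for Psmb8 -0.24 and -0.36. Nlrc5, with the longest exons of the 10 at 8493 bases, deviated by 0.16 and 0.34, and Tap1 at 5476 bases by 0.20 and 0.10. B2m, the shortest at 860 bases, deviated by -0.14 and -0.11. These lengths merge all annotated exons of a gene. By that measure Psmb9 has 3660 bases, close to Tapbp at 3628, which deviated by -0.01 and 0.08. Their longest coding transcripts lie further apart, at 1352 bases for Psmb9 and 2898 for Tapbp. This pair therefore cannot show whether the members line up by length.

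**Figure D4:**
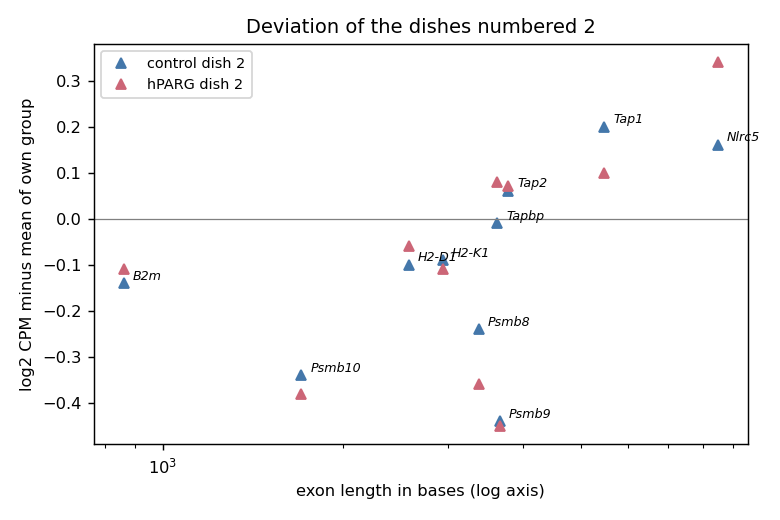
Deviation of each dish numbered 2 from the mean of its own group (log2 CPM) against exon length in bases (all annotated exons merged, log axis), one point per gene and group. The immunoproteasome genes lie lowest, down to -0.45 for Psmb9, and the long genes Tap1 and Nlrc5 lie above 0.

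Each inducible subunit takes the place of a constitutive one, so their ratio was compared within each dish on log2 RPKM. Psmb8 to Psmb5, the chymotrypsin-like pair, was 0.34, 0.53 and 0.08 in control and 0.23, 0.23 and 0.38 in hPARG-expressing dishes, a difference of -0.04 (exact two-sided permutation p = 0.900). Psmb9 to Psmb6 was -5.58, -5.70 and -5.44 against -5.57, -5.70 and -5.75, a difference of -0.11 (exact permutation p = 0.300), so Psmb9 RNA stood at 0.0210 and 0.0196 of Psmb6. Psmb10 to Psmb7 was -2.37, -2.48 and -2.32 in control and -2.54, -2.82 and -2.74 in hPARG-expressing dishes, which did not overlap.
That difference was -0.31, from 0.191 to 0.154 of Psmb7 (exact permutation p = 0.100, Benjamini-Hochberg 0.300 over 3 pairs), and 0.1 is the smallest p that 3 against 3 dishes can give. In deposited RPKM the ratios thus ranged from Psmb8 RNA above its constitutive partner to Psmb9 RNA far below it. These levels depend on the gene lengths behind the RPKM. For Psmb8, merged exons hold 3381 bases and the longest coding transcript 1628. Whether Psmb8 stays above Psmb5 with other lengths was not tested.

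The constitutive subunits had log2 fold changes of -0.05 (Psmb5), -0.01 (Psmb6) and 0.03 (Psmb7). Of 11 structural subunits of the 20S core 0 passed the FDR or an unadjusted p of 0.05 (median 0.01). Psmb4 and Psmb1 had the highest mean CPM, and Psmb2 had the largest value, 0.13 (SE 0.170). Of 9 activators and assembly factors 0 passed either (median -0.08). Pomp, the assembly chaperone that immunoproteasomes need, gave 259, 200 and 296 against 277, 196 and 277 CPM, and Psmg4 had the largest value, 0.29 (SE 0.306).

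Nlrc5, which gathers factors on the X and Y elements of class I promoters, gave 9.44, 12.3 and 11.5 CPM in control and 8.07, 13.6 and 11.2 CPM in hPARG-expressing dishes. The hPARG-expressing dishes held both its lowest and its highest value, and the log2 fold change was -0.01 (SE 0.201, 95% interval -0.47 to 0.46), or -0.11 without both dishes 2. Ciita, its class II counterpart, had at most 1 count.

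Of 18 transcription factors that act on class I promoters, 17 were tested and 0 passed the FDR in edgeR without a replicate block (median -0.11). At an unadjusted p under 0.05, 3 were lower, beside 2.54% of all tested genes. Irf1, the interferon response factor of these promoters, gave 95.0, 94.5 and 105 CPM in control and 81.0, 66.1 and 70.6 CPM in hPARG-expressing dishes, which did not overlap. Its log2 fold change was -0.44 (SE 0.112, edgeR FDR 0.713). Each hPARG-expressing dish thus lay below each control dish without the gene being called in that fit. With a replicate block 5 of the 17 passed the FDR in edgeR, Irf1 among them (FDR 0.00691), beside 330 of all 11509 tested genes.
Relb, an NF-kappaB subunit, gave 28.7, 36.5 and 30.9 CPM in control and 20.7, 24.2 and 18.6 CPM in hPARG-expressing dishes, a log2 fold change of -0.60 (SE 0.141, edgeR FDR 0.567, and FDR 0.0380 without both dishes 2). DESeq2 called it as the 1 of the 17 past its threshold (FDR 0.0444), beside 52 of all 11509 tested genes. Nfkb2 (220, 291 and 216 against 191, 232 and 185 CPM) and Rela (120, 167 and 123 against 107, 123 and 97.1 CPM), the most abundant of the list, overlapped between groups.

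Of 11 interferon ligands, receptors and signalling genes 9 were tested and 0 passed the FDR (median -0.04). Socs1, a feedback inhibitor of interferon signalling, was the 1 gene lower at an unadjusted p under 0.05, beside 2.54% of all tested genes. It gave 25.7, 22.6 and 26.4 against 22.3, 19.4 and 19.3 CPM, a log2 fold change of -0.30 (SE 0.115, edgeR FDR 0.999). The kinases Jak1 and Jak2 had the highest mean CPM, with log2 fold changes of 0.03 and 0.02. The ligand Ifng was at 0 in all dishes and Ifnb1 had at most 2 counts.

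Interferon-stimulated genes outside antigen presentation had a lower median log2 fold change than the members, with overlapping ranges. Of 19 tested, 1 passed the FDR (Cxcl10), beside 0.0869% of all tested genes, and 10 were lower at an unadjusted p under 0.05, beside 2.54%. With a replicate block 7 of the 19 passed the FDR, beside 330 of all 11509 tested genes in that fit. All 19 were below 0, beside 49.1% of all tested genes, with a median of -0.49 that became -0.30 without both dishes 2. The members' median of -0.12 became -0.11. The difference between these lists was not tested. Cxcl10, a T cell attracting chemokine, fell from 24.2, 35.2 and 29.7 CPM to 11.3, 11.7 and 11.6 CPM, a log2 fold change of -1.36 (SE 0.150, edgeR FDR 0.0266).
That call was not made without control dish 3 (FDR 0.0849), hPARG dish 1 or hPARG dish 3 (FDR 0.257 for both, edgeR), and 0 of the 19 then passed. The other nine genes under 0.05 were Ifit1, Ifit3, Mx1, Mx2, Rsad2, Usp18, Gbp2, Gbp3 and Igtp, with log2 fold changes from -1.39 (Mx1) to -0.32 (Igtp). Mx1 lay at low counts, 4 to 38 per dish (0.183 to 1.63 CPM, SE 0.522). Bst2 and Ifit2, with the highest mean CPM of the list, each gave -0.09.

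**Figure D5:**
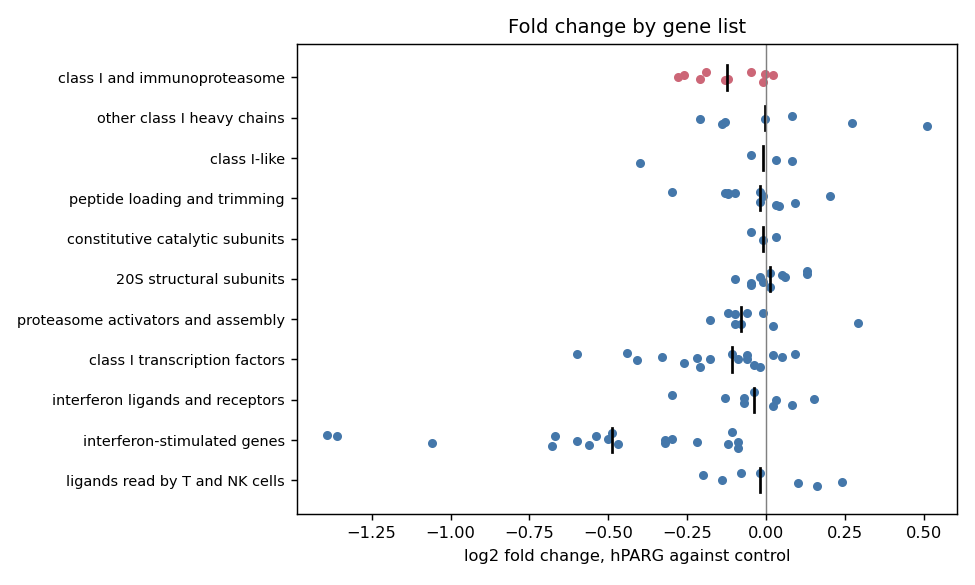
Log2 fold change of hPARG against control for every tested gene, grouped by list, each point 1 gene and each bar a list median. The class I and immunoproteasome genes run from -0.28 to 0.02, and the interferon-stimulated genes from -1.39 (Mx1, 0.183 to 1.63 CPM) to -0.09.

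The members did not all vary together over the 6 dishes. Psmb8 and Psmb9 had a Pearson r of 0.972 on log2 CPM, Psmb9 and Psmb10 0.942, and Tap2 and Tapbp 0.937, whereas B2m and Tap1 had -0.781. For Nlrc5 r was negative with every other member except Tap1 (0.0914), from -0.749 with H2-D1 and Psmb8 to -0.0769 with Tapbp. These are descriptions over n = 6 dishes that share the same dishes numbered 2 and the same groups.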

How the data were processed

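Poly(A) RNA libraries were sequenced as 150 base pairs from both ends, and the authors mapped reads to GRCm38 with Ensembl release 96 in CLC Genomics Workbench 12, allowing multi-hit reads. The deposited table gives whole-number read counts per gene, used for every test, and RPKM by the authors, used for levels and ratios. Its TPM and CPM columns, and the authors' own comparison columns (fold changes, p-values, adjusted p-values and group means), were not used. Counts were fitted over the whole table with edgeR 4.0.16 (TMM, filterByExpr with a minimum count of 10, quasi-likelihood test, no block, Benjamini-Hochberg), and the scripts were tested on simulated data. DESeq2 1.42.0 was an alternative. CPM here are TMM-normalized. Ratios were compared by exact permutation. Intervals cover the spread between dishes, and the 3-count floor covers counting error only. Exon overlaps came from GENCODE M21, the counterpart of Ensembl release 96, in which every gene ID was found.

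The members and gene lists were chosen with earlier results of these data known. All members are named, as are, of each list, genes at an unadjusted p under 0.05, the 2 of highest mean CPM and the one with the largest log2 fold change, and the 5 genes most like the members' mean pattern. Zbtb22, fibroblast and leukocyte markers, list genes named at 0 or few counts, and Psmb6 and Psmb7 as ratio partners were named outside that rule. One list gene that this rule would name is not reported here.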

Additional observations from a re-analysis of the deposited data

How the results depend on the processing

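The cause of the changes below was not tested. The members' median stayed below 0 under each of 15 alternatives, and 0 members passed both the FDR and 2-fold in each. Leaving out 1 dish at a time gave 0 to 1 members at an unadjusted p under 0.05 (2.25% to 4.95% of all tested genes) and 1 to 3 lower without overlap (8.02% to 12.4%). That count at an unadjusted p was 0 with no filter on low counts (Tapbp, unadjusted p = 0.0511, edgeR) and 2 without both dishes 2 (6.78% of all tested genes), and 3 members were lower without overlap without both dishes 2 (18.0%) or with an exon length and GC correction (7.46%). Signs turned for H2-D1 (0.0011 with DESeq2 and RLE size factors, 0.01 with the length and GC correction, -0.09 to 0.05 leaving out 1 dish), B2m (-0.01 with library size only, -0.03 with the correction, -0.05 to 0.07), Psmb8 (0.0044 without both dishes 2, -0.17 to 0.11), Psmb9 (-0.32 to 0.09), Nlrc5 (-0.19 to 0.17) and the ratio of Psmb8 to Psmb5 (-0.15 to 0.07, 0.07 without control dish 2). Over all genes, 10 passed the FDR, but 52 with DESeq2, 16 with no filter, 27 with the correction, 40 without both dishes 2 and 3 to 13 without 1 dish.

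Labels number the dishes 1 to 3 in both groups, but same-numbered dishes deviated together with correlations of 0.0963, 0.61 and 0.168, not all above the cut of 0.1 set here, and control 1 and control 3 correlated best with hPARG 3 (0.207) and hPARG 1 (0.335), so the numbers were not taken as pairs. The main fit thus leaves what the dishes numbered 2 share in its error. The common coefficient of variation between dishes was 0.148 without a block and 0.0615 with a replicate block. With a replicate block, edgeR called 330 genes, 1 member (Tapbp, FDR 0.0257) and 5 members at an unadjusted p under 0.05, all lower, beside 17.9% of tested genes in either direction and 8.92% lower. With the replicate block and the length and GC correction it called 327 genes and 2 members (Tapbp, FDR 0.0239, and Psmb10, FDR 0.0442), 5 members had an unadjusted p under 0.05, all lower (18.9% of tested genes in either direction, 10.6% lower), and 3 were lower without overlap (7.46%), and H2-D1 gave 0.0017 and B2m -0.02.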

Other observations

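Class I-like molecules and ligands read by T and NK cells were measured in the same dishes. Of 5 class I-like genes 4 were tested, and 0 passed the FDR or an unadjusted p of 0.05 (median -0.01). Fcgrt, which recycles antibodies, gave 22.2, 18.2 and 29.5 CPM in control and 28.0, 20.5 and 25.5 CPM in hPARG-expressing dishes, and Mr1, which presents vitamin metabolites, 14.5, 11.4 and 12.9 against 12.9, 12.8 and 13.8 CPM. Cd1d1, a lipid-presenting molecule, had the largest value, -0.40 (SE 0.276). Of 12 ligands read by T and NK cells 7 were tested and 0 passed either (median -0.02). Ulbp1, a ligand of the activating NK receptor NKG2D, was the most abundant at 164, 196 and 158 against 158, 192 and 160 CPM, followed by Cd276 at 58.2, 63.8 and 52.0 against 65.7, 68.1 and 60.8 CPM, and H60b had the largest value, 0.24 (SE 0.186).

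The 5 other tested genes whose log2 CPM over the 6 dishes was most like the members' mean standardized pattern were Cenph (Pearson r = 0.998), Cdc20 (0.996), Atg16l1 (0.993), Hoxd3 (0.992) and Cct8 (0.992), the highest of 11499 genes. The dishes numbered 2 are shared by these patterns, and with n = 6 dishes the values are a description.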
